A study of Mus musculus with 342 samples.

Results

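CC052/GeniUnc (alias AU8052) is 1 of 44 Collaborative Cross lines whose livers were profiled after a single oral dose of TAK-875 or of vehicle. Its arrays were taken by the line label and number 8 of 342, with 4 mice given vehicle (dose 0) and 4 given TAK-875 at 600 mg/kg. Each treated mouse shares a study pair number with 1 vehicle mouse, which makes 4 of the 171 pairs of the series, and strain pair numbers 1 to 4 name them here. Every mouse of the series was male and about 8 to 10 weeks old, had been acclimated for about 7 days, and received 10 ml/kg by gavage of 0.5% methylcellulose without or with the compound, with the liver taken at 24 hours. The mice of a line share 1 inbred genotype, so nothing measured in this line separates its genotype from other features of the line. The series title writes the compound as TAK-857, while the sample labels and the design write TAK-875, and the latter is used. Levels are log2 expression values of whole liver RNA, and all 9093 genes with a named probe set were tested.

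TAK-875 (fasiglifam) activates FFAR1 (GPR40), a receptor for free fatty acids, and was developed to lower blood glucose in type 2 diabetes and withdrawn from trials over liver injury. Collaborative Cross lines are recombinant inbred mice that descend from a panel of founder strains, and they are used to ask how genetic background shapes a response. In liver, fatty acids and many carboxylic acid drugs activate the nuclear receptor PPARA, which raises enzymes that split and oxidise fatty acids in peroxisomes and mitochondria. NRF2 raises detoxifying and antioxidant genes, and the proteasome degrades damaged proteins. Bile acids are made from cholesterol and leave the hepatocyte through dedicated export pumps.

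Before any result, the vehicle mice of pairs 1 and 3 have to be set apart from those of pairs 2 and 4. Elovl3, a fatty acid elongase that is high in male liver, stood at 3.90, 9.68, 5.43 and 11.33 in the vehicle livers of pairs 1 to 4, the order in which values are listed throughout. Hsd3b5, a male steroid dehydrogenase, stood at 6.74, 10.90, 8.49 and 10.99 in the same livers, and Cyp7b1, an oxysterol hydroxylase, at 7.73, 11.55, 9.37 and 11.67. All 3 genes were low in pairs 1 and 3 and high in pairs 2 and 4. The opposite order held for Cyp2b9, a cytochrome P450 of female liver, at 9.84, 3.42, 6.00 and 3.40, and for the organic anion carrier Slc22a26 at 8.80, 6.53, 9.30 and 6.13. Trim16, a ubiquitin ligase family member, stood at 8.68, 2.68, 8.82 and 3.85, and Klra16, a natural killer cell receptor gene, at 9.92, 4.41, 9.49 and 2.63. The Klra16 levels are those of the brighter of its 2 probe sets. Its mean TAK-875 minus vehicle difference was -1.685 on that probe set and 0.183 on the other, whose levels are not shown. Over 17 male-biased liver genes the mean level was 7.88, 9.53, 8.36 and 9.96, against 7.98 to 10.10 for the vehicle means of the 43 other lines, and over 19 female-biased genes it was 6.44, 4.70, 5.49 and 4.43, against 4.37 to 6.04. The Y-linked genes Eif2s3y and Kdm5d stood at 5.38 to 6.79 and at 3.39 to 5.56 in the 8 livers. An array gives every gene a value, and the series holds no female liver to set beside these, so the levels do not check sex. TAK-875 livers did not follow the pair order, since Elovl3 stood at 4.90, 6.26, 8.10 and 7.38 and Klra16 at 4.14, 4.08, 4.76 and 6.73. The part of this pattern in the results that follow was not tested, and counts and values without pairs 1 and 3 are given beside the main results.

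**Figure D1:**
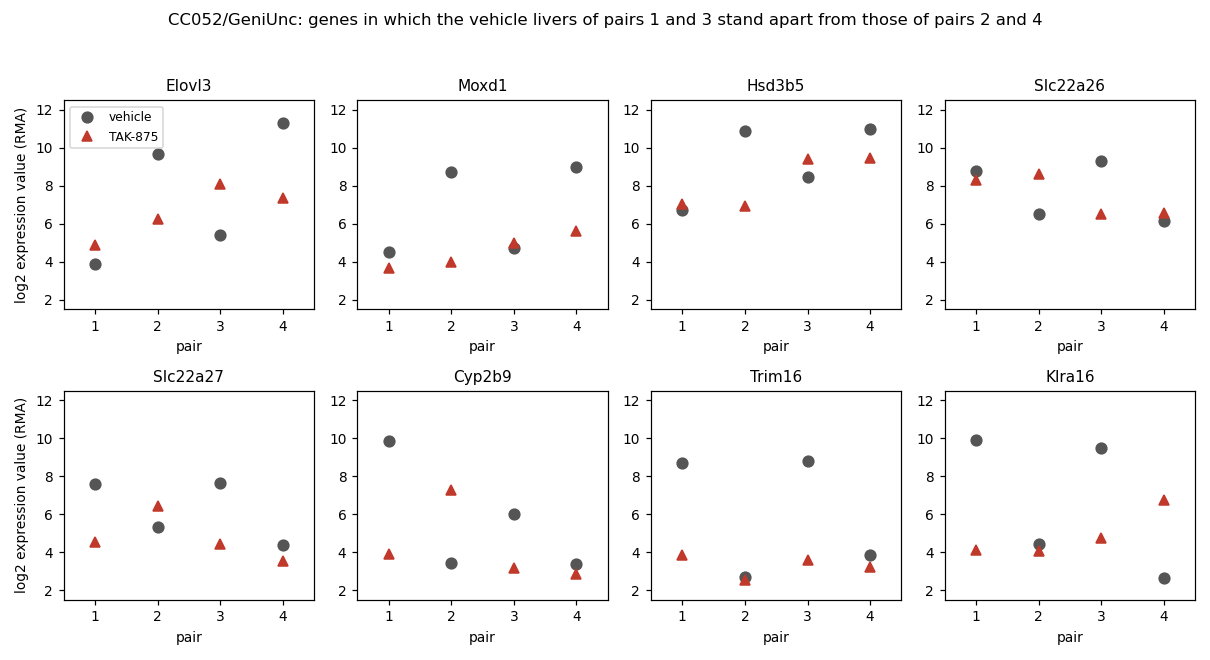
Log2 expression level (y axis) of 8 genes in each liver of CC052/GeniUnc by pair number (x axis), with circles for vehicle and triangles for TAK-875. In Elovl3, Moxd1 and Hsd3b5 the vehicle circles of pairs 1 and 3 lie below those of pairs 2 and 4, and in Slc22a26, Slc22a27, Cyp2b9, Trim16 and Klra16 they lie above them.

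The arrays of the line also varied more than most. Their medians were 5.712, 6.007, 5.601 and 5.711 with vehicle and 5.884, 5.995, 5.865 and 5.595 with TAK-875. The medians of the other 334 arrays ran from 5.40 to 6.22, with a median of 6.00. In pairs 1 and 3 the vehicle array as a whole was lower than its TAK-875 partner, and in pairs 2 and 4 it was higher. The median correlation with the other arrays of the same group ran from 0.944 to 0.963. The median over the other 334 arrays was 0.979. The SD of the 4 pair differences had a median over genes of 0.44, the third widest of the 44 lines, against 0.22 to 0.48 in the other lines with a median of 0.34. The mean over 9 hepatocyte markers was 12.45 to 12.80 in the 8 livers. It stood at 12.45 and 12.46 in the vehicle livers of pairs 1 and 3, below the 12.56 to 12.85 of the other lines' vehicle means, and at 12.76 and 12.72 in those of pairs 2 and 4.

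The effect of TAK-875 in this line was asked with limma on the 171 pair differences, TAK-875 minus vehicle, with 1 mean per line and a spread shared by all lines. At a Benjamini-Hochberg adjusted p of 0.05, 1028 of 9093 genes (11.3%) changed, of which 786 (8.64%) were higher and 242 (2.66%) lower with TAK-875, and 138 changed at least 2-fold. Only 2 other lines had more calls, and the other 43 lines ranged from 0 to 1403 with a median of 27. Higher genes made up 76.5% of the calls on the deposited scale, but 53.6% of 674 calls after each array was centred on its median and 55.2% of 830 after a further quantile normalisation. The median response of all genes was 0.08 on the log2 scale as deposited and 0.00 after centring. Over the 786 higher genes the median difference was 0.78, 0.17, 0.97 and 0.35 in pairs 1 to 4, and over the 242 lower genes the drop was largest in pair 1 for 129 (53.3%) and in pair 3 for 59 (24.4%). Accordingly, 316 genes were called without pair 1, 1384 without pair 2, 288 without pair 3, 969 without pair 4 and 33 without pairs 1 and 3 together. With a spread of its own for each line, 253 genes were called, and with the 4 pairs of the line alone 1, Acnat2, beside 1183 at an unadjusted p under 0.05. In the main fit the p-values and every SE rest on the spread between separate mice that all lines share. They are not the spread of the 4 pairs of this line, which was wider than in most lines. The number of arrays limits the precision.

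**Figure D2:**
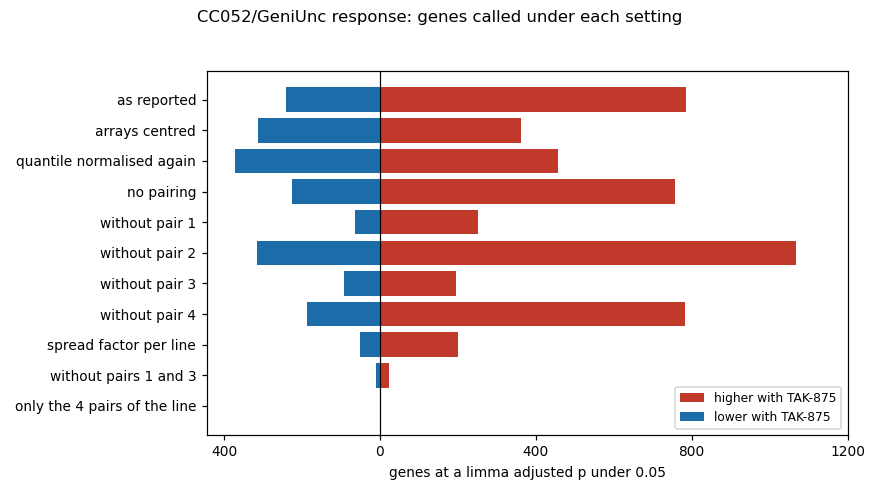
Number of genes (x axis, higher to the right of 0 and lower to the left) past a limma adjusted p of 0.05 for the response of CC052/GeniUnc under the settings named on the y axis. The bar falls from 1028 genes to 33 without pairs 1 and 3 and to 1 with the 4 pairs of the line fitted alone, and it grows to 1384 without pair 2.

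A set of 106 genes, 77 higher and 29 lower, was called with all 4 pairs and also with any 1 pair left out. It was drawn up after the values were seen, as were the genes named from it, and it is given as a description. All 106 were also called after centring and after quantile normalisation, and 99 with a spread per line. The size of their responses ran from 0.38 to 3.53 on the log2 scale, with a median of 0.94. Of the 77 higher genes, 60 were called lower in this line's vehicle livers than in the other lines. Over all genes 28.4% were. The responses share those vehicle arrays, and the part of the low vehicle levels in these rises was not tested.

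The largest rise was that of 2010003K11Rik, a RIKEN cDNA gene. It stood at 5.46, 5.19, 4.95 and 5.10 in the vehicle livers and at 9.61, 6.79, 9.97 and 8.45 in the TAK-875 livers. Every treated liver was thus above every vehicle liver, with the smallest rise in pair 2. The response over 4 pairs was 3.53 ± 0.47 (SE from the spread shared by all lines, as for every SE below), an 11.5-fold rise (limma adjusted p = 3.58e-08). The highest adjusted p with 1 pair left out was 0.00015. Without pairs 1 and 3 it was 2.48 (adjusted p = 0.055). The mean of the other lines was 1.02 ± 0.70 (SD over 43 lines).

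Acnat2 belongs to a family of enzymes that join acyl groups to amino acids in peroxisomes. It stood at 6.98, 6.56, 6.63 and 6.82 with vehicle and at 10.06, 8.84, 8.40 and 9.18 with TAK-875. The groups were well apart, and no pair stood out in the vehicle livers. The response was 2.38 ± 0.35 (SE), 5.19-fold (limma adjusted p = 4.74e-07), and it was still called without pairs 1 and 3 (2.32, adjusted p = 0.0096). In the other lines the mean response was 0.07 ± 0.52 (SD), and none exceeded 1.40. The 250 bases before the start of these 2 genes, the 2 largest rises, are shown from RefSeq (GRCm38.p6), for 2010003K11Rik at chr19:4498584-4498833 and for Acnat2 at chr4:49408152-49408401, where RefSeq lists 2 starts and the one listed first was used, both on the minus strand and written 5′ to 3′.
2010003K11Rik: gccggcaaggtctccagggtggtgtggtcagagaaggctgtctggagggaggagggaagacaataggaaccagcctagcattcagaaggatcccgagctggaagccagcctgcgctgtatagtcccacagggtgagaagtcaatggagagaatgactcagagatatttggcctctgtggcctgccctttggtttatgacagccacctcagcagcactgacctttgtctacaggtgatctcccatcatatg
Acnat2: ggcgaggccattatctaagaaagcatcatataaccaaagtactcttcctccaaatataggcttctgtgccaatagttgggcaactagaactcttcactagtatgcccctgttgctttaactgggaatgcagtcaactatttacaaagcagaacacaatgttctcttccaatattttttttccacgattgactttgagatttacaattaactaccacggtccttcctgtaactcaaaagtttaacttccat
Neither window holds the DR1 motif, a direct repeat of the kind PPARA binds (searched on both strands), which stands in 0.338% of 32851 such windows, and neither holds TGACNNNGC, the core of the antioxidant response element, which stands in 10.2% of them. No base is in capitals because no match was found, and this says nothing of which factor acts on either gene.

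Tfrc, the transferrin receptor through which cells take up iron, stood at 6.12, 7.61, 6.73 and 7.20 with vehicle and at 8.74, 8.75, 9.26 and 8.23 with TAK-875. No treated liver fell within the vehicle range, and the rises were largest in pairs 1 and 3, where vehicle was lowest. Its response was 1.83 ± 0.36 (SE), 3.56-fold (limma adjusted p = 0.000136), and 1.08 without pairs 1 and 3 (adjusted p = 0.47). Slc48a1, a carrier of haem, rose by 1.09 and Slc25a37, the mitochondrial iron carrier mitoferrin, by 0.72. The Slc25a37 probe set can also bind transcripts of unrelated genes. Of the 3 probe sets of Slc25a37 only 1 was called higher, and their responses ran from -0.045 to 0.722.

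Agt, which encodes angiotensinogen, was measured with little spread. Its vehicle levels were 10.90, 11.00, 10.90 and 11.00, and its TAK-875 levels 12.18, 11.76, 11.96 and 12.06. Agt rose in each pair, most in pair 1 and least in pair 2. The response was 1.04 ± 0.15 (SE; limma adjusted p = 4.4e-07), with 0.91 without pairs 1 and 3 (adjusted p = 0.026). Slc2a1, the glucose carrier GLUT1, rose from 5.69, 5.43, 5.86 and 5.48 to 6.36, 6.89, 6.55 and 6.75, a response of 1.02 ± 0.24 (SE; limma adjusted p = 0.0013) that was 1.36 without pairs 1 and 3 (adjusted p = 0.032). Of the 2 probe sets of Slc2a1 only 1 was called higher, and their responses were 0.573 and 1.023. Pde7a, a phosphodiesterase that breaks down cyclic AMP, rose from 3.51, 3.52, 3.49 and 3.49 to 4.45, 4.89, 4.55 and 5.02. Its response of 1.22 (limma adjusted p = 0.00026) was likewise called without pairs 1 and 3 (1.45, adjusted p = 0.032). In these 3 genes the groups did not overlap and pairs 2 and 4 showed the change as well as pairs 1 and 3.

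Other genes of the same set are Prelid2 (1.52), Rarres1 (1.43), the sialyltransferase St3gal1 (1.18), the histone variant H2ax (1.15), the tetraspanin Cd9 (1.10), the small heat shock protein Hspb8 (1.04, whose probes also match unrelated genes), the sphingolipid enzyme Kdsr (0.97), the phospholipid enzyme Cds2 (0.94), the signalling adaptor Grb2 (0.89) and the junction protein plakoglobin, Jup (0.89). Some small rises rested on low vehicle values in pairs 1 and 3. Apoa2, an apolipoprotein of high-density lipoprotein, stood at 12.87, 13.42, 12.63 and 13.51 with vehicle and at 13.50, 13.51, 13.43 and 13.52 with TAK-875. Hint1 stood at 11.11, 11.78, 11.04 and 11.73 against 11.86, 11.79, 11.84 and 11.90. In both genes pairs 2 and 4 hardly differed, and without pairs 1 and 3 the responses of 0.38 and 0.44 were 0.05 (limma adjusted p = 0.915) and 0.10 (adjusted p = 0.805).

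**Figure D3:**
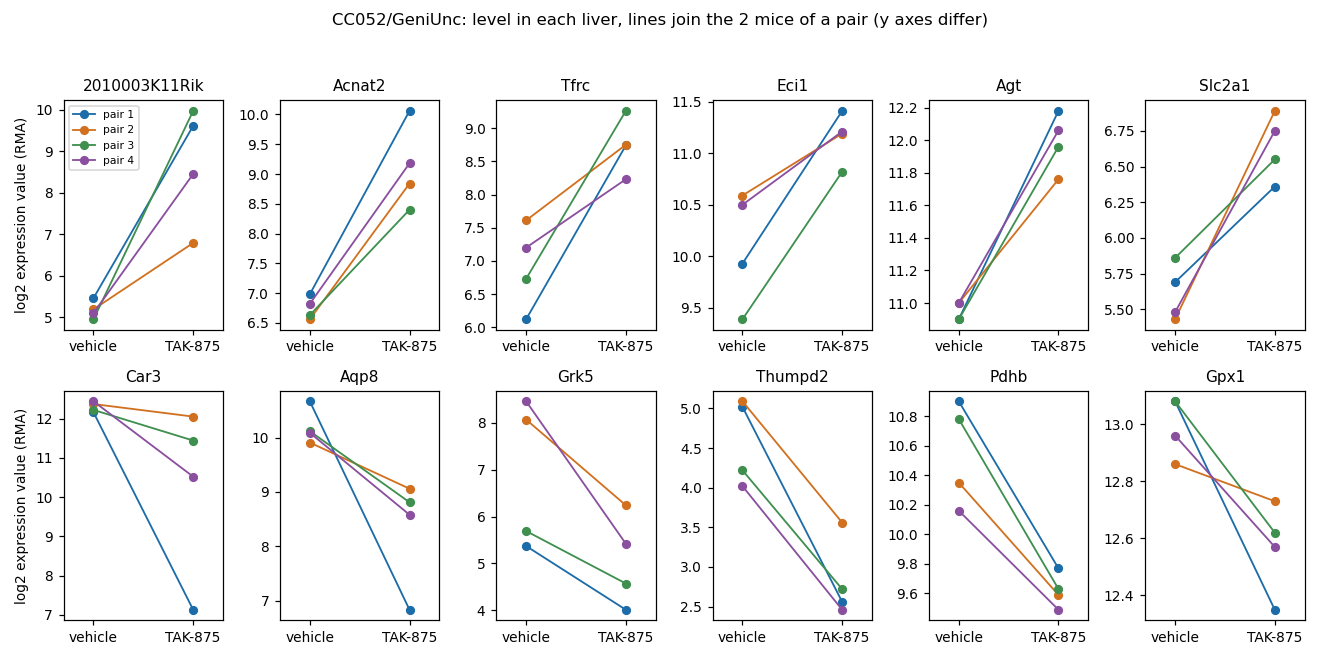
Log2 expression level (y axis, scaled to each gene) in the vehicle and TAK-875 liver of each pair (x axis) for 6 genes that rose and 6 that fell in CC052/GeniUnc, with a line for each pair. All lines of Agt and Slc2a1 rise, those of 2010003K11Rik spread from 6.79 to 9.97 at the treated end, and the drops of Car3 and Aqp8 are steepest in pair 1.

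The 15 largest rises among genes with 1 sign in all 4 pairs ran from 1.41 to 3.53. Of these, 9 had groups that did not overlap, 11 were called after centring, 6 with a spread per line and 1, Acnat2, without pairs 1 and 3. The rule that picked these genes favours groups that do not overlap, so that count only describes them. It was not taken over all genes. Beside the genes above, the 15 rises held Orm3, an acute phase glycoprotein. Orm3 stood at 4.14, 4.34, 2.63 and 3.68 with vehicle and at 6.56, 6.43, 5.66 and 4.15 with TAK-875. The groups overlapped through pair 4, and the response of 2.00 ± 0.65 (SE; limma adjusted p = 0.0306) was not called without pair 1, 2 or 3 (adjusted p = 0.158, 0.0614 and 0.222). Gpx2, a glutathione peroxidase, went from 1.91, 2.45, 3.40 and 3.50 to 6.56, 2.48, 4.80 and 5.07. Pair 2 showed almost no difference, and the response of 1.91 (limma adjusted p = 0.00253) was 1.00 without pair 1 (adjusted p = 0.304). Dnajc12, a co-chaperone, went from 6.60, 7.53, 7.00 and 7.05 to 10.25, 7.60, 8.09 and 8.26. Here too pair 1 was far above the others, and the response of 1.502 (limma adjusted p = 0.00721) was 0.79 without it (adjusted p = 0.372). Ctif (1.498; 1.02 and adjusted p = 0.0507 without pair 1), Nlrp12 (1.51; 0.96 and 0.318 without pair 1) and Lpl, lipoprotein lipase (1.56; adjusted p = 0.0562 without pair 1 and 0.144 without pair 4), had groups that did not overlap. Lox, the collagen cross-linking lysyl oxidase (1.64), was lost without pair 1, 2 or 3, Fbf1 (1.62) without pair 2, 3 or 4 and Zfp981 (1.57) without pair 1 or 3, and in all 3 the groups overlapped. Across the 15 rises the treated liver of pair 1 was the highest of the 8 in 10.

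Grk5 fell under every pair left out and without pairs 1 and 3. This kinase switches off activated G protein-coupled receptors. It stood at 5.37, 8.07, 5.69 and 8.46 with vehicle and at 4.01, 6.24, 4.57 and 5.42 with TAK-875. The vehicle livers of pairs 2 and 4 were the higher ones, the groups overlapped, and each treated liver was below its own partner. The response was -1.84 ± 0.39 (SE; limma adjusted p = 0.000442) and -2.44 without pairs 1 and 3 (adjusted p = 0.018). Thumpd2 went from 5.02, 5.09, 4.22 and 4.02 to 2.56, 3.56, 2.72 and 2.46, with no overlap. Its response was -1.76 ± 0.31 (SE; limma adjusted p = 3e-05), and the mean of the other lines was 0.04 ± 0.31 (SD). Pkhd1, the gene of polycystic disease of kidney and bile duct, fell by 1.43 on the log2 scale, and Rab23, a small GTPase, by 1.38. In both of these the groups did not overlap and no other line had a lower response.

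Further genes named from the 29 lower ones of the set of 106 include Pdhb. Pdhb, the beta subunit of pyruvate dehydrogenase, went from 10.90, 10.35, 10.78 and 10.16 to 9.77, 9.59, 9.63 and 9.49. The groups did not overlap, and the response was -0.93 ± 0.17 (SE; limma adjusted p = 4.9e-05). Pdk1, a kinase that switches the same enzyme off, fell by 0.85, Pklr, the liver pyruvate kinase, fell by 1.12, and Polg2, the accessory subunit of the mitochondrial DNA polymerase, fell by 0.83. Gpx1, the main cellular glutathione peroxidase, went from 13.08, 12.86, 13.08 and 12.96 to 12.35, 12.73, 12.62 and 12.57, a response of -0.43 ± 0.07 (SE; limma adjusted p = 1.1e-06). Pipox, a peroxisomal amino acid oxidase, fell by 0.70, Cyp46a1, a cholesterol hydroxylase, by 1.27, and Lats2, a kinase of the Hippo pathway, by 1.22. Without pairs 1 and 3 none of the genes of this paragraph was called, with limma adjusted p from 0.185 for Polg2 to 0.584 for Lats2.

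Car3 and Aqp8 fell in each of the 4 pairs, most in pair 1, and neither was called without pair 1. Car3, a carbonic anhydrase that is abundant in liver and fat, stood at 12.16, 12.37, 12.22 and 12.44 with vehicle and at 7.13, 12.05, 11.44 and 10.52 with TAK-875. There was no overlap, but the treated liver of pair 1 was far below the rest, and the response of -2.01 ± 0.43 (SE; limma adjusted p = 0.000475) was -1.01 without pair 1 (adjusted p = 0.235). Its 3 probe sets gave responses from -3.06 to -0.69, all of 1 sign. Aqp8, a water channel of the bile canaliculus, stood at 10.67, 9.91, 10.12 and 10.09 against 6.83, 9.06, 8.81 and 8.58, and its response of -1.88 (limma adjusted p = 0.00131) was -1.22 without pair 1 (adjusted p = 0.146). Trim16 showed the fall of largest size among genes with 1 sign in all pairs (-2.71 ± 0.58 SE; limma adjusted p = 0.00046), yet its treated levels were 3.85, 2.55, 3.59 and 3.21, and it dropped from a high vehicle level in pairs 1 and 3 alone. Without pairs 1 and 3 its response was -0.39 (adjusted p = 0.93). Mecom, a transcription factor gene, showed the same order, with 7.49, 5.28, 7.09 and 4.87 with vehicle against 4.80, 5.05, 4.01 and 4.14, and its response of -1.68 was -0.48 without these pairs (adjusted p = 0.83). Across the 15 largest falls the treated liver of pair 1 was the lowest of the 8 in 8, all 15 were called after centring, and 4 were called without any 1 pair.

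Of 39 measured PPARA target genes, 15 rose and 0 fell, where 8.64% and 2.66% of all genes did so. Their median response was 0.48, against 0.08 for all genes of the line and 0.29 for the same list in the other lines, and 34 of 39 were above 0. The list mean rose in each pair, by 0.37, 0.66, 0.50 and 0.60, and ranked 15th of 44 lines. After centring 7 of the 15 were called, with a spread per line 6, without pair 3 6 and without pairs 1 and 3 together 3. The members that passed include Acot3 and Acot1, thioesterases that release fatty acids from coenzyme A and are classical PPARA responders. Acot3 stood at 8.53, 4.88, 5.26 and 4.09 with vehicle and at 7.48, 8.28, 6.83 and 7.95 with TAK-875, on a probe set that can bind family members. Vehicle was high in pair 1, where the treated liver was lower than its partner, and the response was 1.95 ± 0.67 (SE; limma adjusted p = 0.0406), or 3.63 without pairs 1 and 3 (adjusted p = 0.042). Acot1 stood at 7.26, 5.50, 5.34 and 4.55 against 7.26, 7.63, 6.41 and 8.37. Pair 1 showed no difference, and the response of 1.76 ± 0.59 (SE; limma adjusted p = 0.0379) was lost without pair 2, 3 or 4.

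Eci1, an isomerase needed to oxidise unsaturated fatty acids, went from 9.93, 10.59, 9.39 and 10.50 to 11.41, 11.19, 10.82 and 11.21. The groups did not overlap, and the response of 1.06 ± 0.12 (SE; limma adjusted p = 2.84e-10) was 0.66 without pairs 1 and 3 (adjusted p = 0.047). The mean of the other lines was 0.43 ± 0.23 (SD), and no other line exceeded 1.00. Crat, the carnitine acetyltransferase that buffers acetyl groups, went from 6.27, 6.35, 5.19 and 5.90 to 7.12, 7.35, 6.71 and 7.52. These groups did not overlap either, and the response was 1.25 ± 0.28 (SE; limma adjusted p = 0.00117). Cpt2, which returns acyl groups to coenzyme A inside mitochondria, rose by 0.70 (adjusted p = 0.000948), Acadvl, the very long chain acyl-CoA dehydrogenase, by 0.40 (adjusted p = 0.000186; not called without pair 1), and Acot8, a peroxisomal thioesterase, by 0.68 (adjusted p = 0.00133). Pctp, a phosphatidylcholine transfer protein, went from 8.50, 7.79, 8.03 and 7.43 to 9.05, 8.98, 9.41 and 8.96, a response of 1.16 ± 0.22 (SE; limma adjusted p = 7.99e-05) that was 1.36 without pairs 1 and 3 (adjusted p = 0.018). Ehhadh, a peroxisomal enzyme of the pathway, rose by 0.92 (adjusted p = 0.00277) and was lost without pair 3. Decr2 and Mgll (0.68 and 0.60) were lost without pair 1 or 3, Slc25a20 (0.40) without pair 1, 3 or 4, Eci2 (0.60) without each of the 4 pairs in turn, Acaa1a (1.17) without pair 2, 3 or 4, and Acadl (0.36) without pair 3. Of the 2 probe sets of Acaa1a only 1 was called higher, and their responses were 0.262 and 1.173. Outside the list, Ech1 and Mlycd, a hydratase-isomerase and malonyl-CoA decarboxylase of fatty acid oxidation, rose by 0.53 and 0.75 and belong to the set of 106.

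Some well known PPARA targets did not pass. Acaa1b, a peroxisomal thiolase, stood at 12.09, 11.26, 11.74 and 11.24 with vehicle and at 11.19, 11.77, 11.78 and 11.62 with TAK-875, a response of 0.01 ± 0.22 (SE; limma adjusted p = 0.99). No other line had a lower response, and their mean was 0.60 ± 0.32 (SD). Cyp4a10, which starts omega oxidation of fatty acids, stood at 12.48, 11.87, 11.93 and 11.09 against 12.30, 12.51, 9.19 and 12.13. Pairs 2 and 4 were higher with TAK-875, the treated liver of pair 3 was far below the other 7, and the response was -0.31 (limma adjusted p = 0.352), with 0.84 without pairs 1 and 3 (adjusted p = 0.055). Vnn1, a pantetheinase, had a response of 0.97 (adjusted p = 0.0719) beside 0.98 in the other lines, and Cpt1a, the entry step of mitochondrial oxidation, 0.54 (adjusted p = 0.137).

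**Figure D4:**
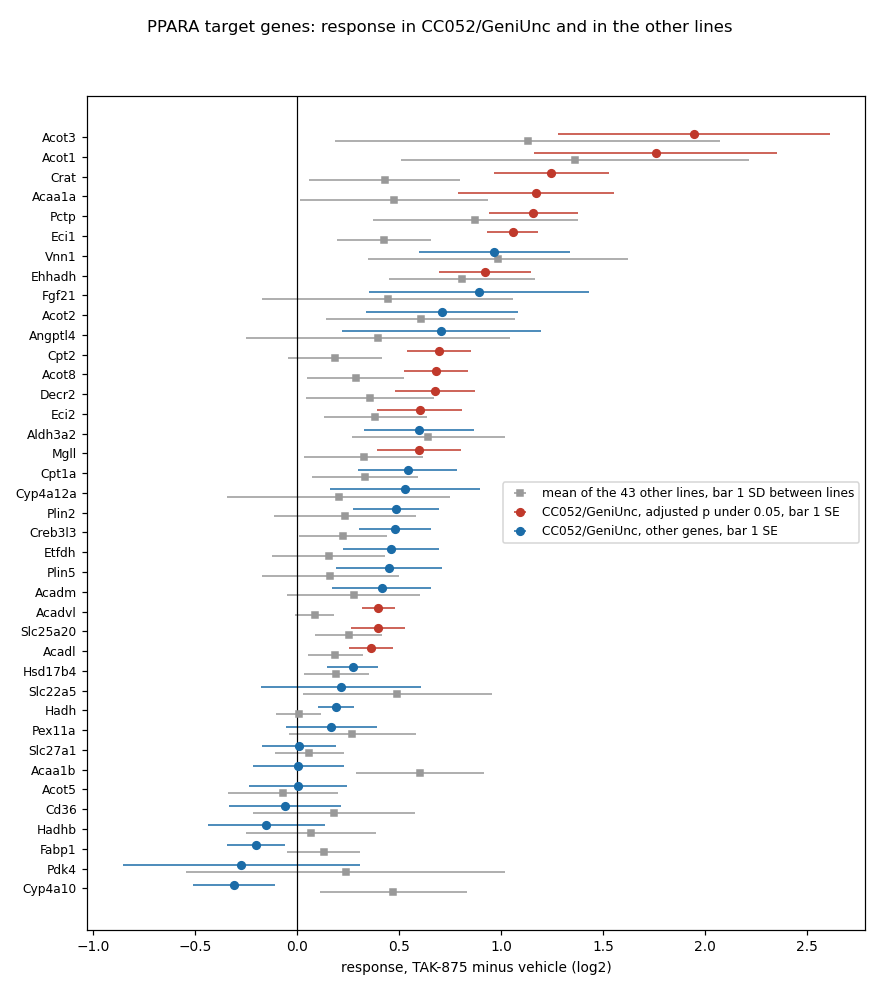
Mean response of 39 PPARA target genes (y axis) as TAK-875 minus vehicle on the log2 scale (x axis). Circles give CC052/GeniUnc with 1 SE of the limma fit, red where the limma adjusted p is under 0.05. Grey squares give the mean of the 43 other lines with 1 SD between lines. Most circles lie to the right of 0, with Acot3 at 1.95 at the top and Cyp4a10 at -0.31 at the bottom, where the other lines average 0.47.

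Of 29 proteasome subunits and related genes measured, 11 rose and 0 fell, beside 8.64% and 2.66% of all genes. The list median was 0.24, beside 0.08 for all genes and 0.14 for the list in the other lines. After centring 7 were called. Psmb5, a catalytic subunit, stood at 7.69, 8.20, 5.34 and 8.19 with vehicle and at 7.83, 8.36, 8.58 and 8.53 with TAK-875. The vehicle liver of pair 3 was far below the other 7, and the response was 0.97 ± 0.27 (SE; limma adjusted p = 0.00909). Psmc4, an ATPase of the regulatory cap, stood at 9.22, 9.70, 8.90 and 9.88 against 9.88, 9.98, 10.38 and 10.20, a response of 0.69 ± 0.15 (SE; limma adjusted p = 0.000747). Psmb4, Psmd2, Psmb1 and Psmb6 followed at 0.55, 0.49, 0.49 and 0.45. The list mean differed by 0.22, 0.10, 0.85 and -0.04 in pairs 1 to 4, its vehicle levels of 9.36 in pair 1 and 9.09 in pair 3 lay below the 9.47 to 9.95 of the other line means, and without pair 3 and without pairs 1 and 3 no subunit was called (Psmb5 0.25, adjusted p = 0.88, in the latter case).

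NRF2 targets changed in 7 of 27, with 6 higher and 1 lower (8.64% and 2.66% of all genes) and a median of -0.02. After centring 2 were higher and 1 lower, and without pairs 1 and 3 none was called. Hmox1, haem oxygenase 1, stood at 4.85, 5.75, 4.67 and 5.33 with vehicle and at 6.19, 6.18, 6.26 and 6.34 with TAK-875. The groups did not overlap and the treated livers were close to each other, while the vehicle livers of pairs 1 and 3 were the lowest. The response was 1.09 ± 0.34 (SE; limma adjusted p = 0.0248), where the mean of the other lines was 0.02 ± 0.36 (SD), and it was lost without pair 1, 3 or 4 (0.72 without pairs 1 and 3, adjusted p = 0.68). Ephx1, microsomal epoxide hydrolase, went from 11.01, 10.58, 10.81 and 10.87 to 11.57, 11.27, 11.51 and 11.58 with no overlap, a response of 0.66 ± 0.15 (SE; limma adjusted p = 0.00083) that no 1 pair carried (0.70 without pairs 1 and 3, adjusted p = 0.12). Srxn1, sulfiredoxin, rose by 0.89, Nqo1, a quinone reductase, by 0.84, Abcc2, the canalicular export pump of conjugates, by 0.67 and Gsr, glutathione reductase, by 0.58, and each of these 4 was lost without pair 3, Srxn1 and Nqo1 and Abcc2 also without pair 4, Nqo1 without pair 2 and Abcc2 without pair 1. The lower gene was Me1, malic enzyme (-1.29, adjusted p = 0.00321), which was lost without pair 1.

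The antioxidant core TGACNNNGC was looked for on both strands in the 250 bases before the start of these genes, and the promoters of 3 higher genes that hold it are shown with the match in capitals, from RefSeq (GRCm38.p6) and written 5′ to 3′. Psmb5 lies at chr14:54617996-54618245 on the minus strand, Psmb6 at chr11:70525107-70525356 on the plus strand and Abcc2 at chr19:43782058-43782307 on the plus strand.
Psmb5: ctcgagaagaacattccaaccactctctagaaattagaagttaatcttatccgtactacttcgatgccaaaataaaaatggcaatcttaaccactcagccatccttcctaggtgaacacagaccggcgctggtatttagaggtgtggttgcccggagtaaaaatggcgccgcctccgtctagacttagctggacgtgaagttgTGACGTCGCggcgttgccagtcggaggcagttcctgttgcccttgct
Psmb6: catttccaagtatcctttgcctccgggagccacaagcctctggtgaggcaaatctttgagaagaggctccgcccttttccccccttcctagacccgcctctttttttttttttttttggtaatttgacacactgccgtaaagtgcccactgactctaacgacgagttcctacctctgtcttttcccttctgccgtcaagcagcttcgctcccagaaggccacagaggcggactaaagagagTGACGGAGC
Abcc2: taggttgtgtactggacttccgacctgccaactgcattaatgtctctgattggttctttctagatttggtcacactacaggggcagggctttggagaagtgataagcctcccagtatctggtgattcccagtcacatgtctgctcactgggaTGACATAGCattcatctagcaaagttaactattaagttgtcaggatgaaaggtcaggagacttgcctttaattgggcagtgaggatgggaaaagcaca
The matches begin 47, 9 and 98 bases before the start, all on the strand of the gene. Such a match was found in 7 of 22 NRF2 targets with a promoter in the table (31.8%), in 3 of 23 proteasome genes (13.0%), in 13.7% of the 7421 genes tested and in 10.2% of all 32851 promoters. The strict DR1 string was found in 1 of 33 PPARA targets, Fabp1, and in 0.35% of the genes tested. In the 84 genes of the set of 106 with a promoter in the table, 7 held the antioxidant core (8.33%) and 0 the strict DR1 string. A match in letters is not a site in use.

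For bile acids, 2 of 18 synthesis genes rose and 2 fell, beside 8.64% and 2.66% of all genes. Without pairs 1 and 3 no gene of the synthesis, transport or FXR lists was called. Acox2, which shortens bile acid side chains, stood at 9.08, 9.99, 9.09 and 9.84 with vehicle and at 10.08, 9.87, 10.33 and 10.11 with TAK-875. Its response of 0.60 ± 0.13 (SE; limma adjusted p = 0.000808) came from the low vehicle livers of pairs 1 and 3 and was 0.08 without them (adjusted p = 0.94), while the second gene higher was Acot8 and those lower were Cyp46a1 and Slc27a5 (-0.29, lost without pair 1 or 3). Cyp7a1, the rate-limiting enzyme, varied widely, at 4.02, 7.41, 7.15 and 8.59 against 4.31, 8.92, 3.92 and 7.00, and its response of -0.75 ± 0.83 (SE; limma adjusted p = 0.632) did not pass. Among 18 transport genes, Abcb4, which flips phosphatidylcholine into bile, went from 9.20, 9.12, 9.02 and 8.85 to 10.53, 9.81, 9.76 and 9.63. The groups did not overlap, and the response was 0.89 ± 0.26 (SE; limma adjusted p = 0.0129), lost without pair 1 or 3 (0.74 without both, adjusted p = 0.51). Slc51b, a subunit of the basolateral bile acid exporter, went from 6.98, 7.34, 6.53 and 6.45 to 5.62, 5.95, 6.05 and 6.20. These groups did not overlap either, and the response of -0.87 ± 0.26 (SE; limma adjusted p = 0.0162) was lost without pair 1 or 2. Abcb11, the bile salt export pump, had a response of -0.20 ± 0.35 (SE; limma adjusted p = 0.786) and Slc10a1, the main uptake carrier, of -0.11 ± 0.16 (SE; adjusted p = 0.75). In the list of the FXR axis, 3 of 12 rose (Abcb4, Fgfr4 and Rxra) and 1 fell (Slc51b), and apart from Abcb4 and Slc51b the rises were 0.58 and 0.39, both lost without pair 1 or 3. Of the 4 probe sets of Fgfr4 only 1 was called higher, and their responses ran from 0.33 to 0.576.

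CAR and PXR targets rose in 3 of 26 and fell in 2, beside 8.64% and 2.66% of all genes, and AHR targets rose in 1 of 7 and fell in 2. After centring the counts were 1 and 2, and 0 and 1, and without pairs 1 and 3 they were 1 and 0, and 0 and 0. Alas1, the first enzyme of haem synthesis, stood at 9.23, 10.28, 9.84 and 9.20 with vehicle and at 11.54, 10.83, 10.97 and 10.86 with TAK-875. The groups did not overlap, and the response was 1.41 ± 0.50 (SE; limma adjusted p = 0.0483), lost without pair 1, 3 or 4 (adjusted p = 0.307, 0.135 and 0.131). Nr1i3, the receptor CAR itself, rose by 0.76 (lost without pair 1, 2 or 4), and Ephx1 is on this list too. The lower genes Cyp2c50, Cyp2c29 and Cyp1a2 (-0.81, -0.79 and -0.91), drug-metabolising cytochromes P450, had their lowest treated values in pair 1 and were lost without pair 1 or 3. Cyp1a2, for example, went from 10.62, 11.23, 11.17 and 11.28 to 8.78, 10.92, 10.01 and 10.94. Ugt1a6a, the other lower AHR target, fell by 0.18 and was lost without pair 1, 3 or 4.

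Of 22 lipogenic genes, which make fatty acids and triglycerides, 0 rose and 3 fell, beside 8.64% and 2.66% of all genes. Without pairs 1 and 3 the counts were 0 and 1. The list median was -0.39, beside 0.08 for all genes and -0.04 in the other lines, and 2 of 22 were above 0. Thrsp, which promotes lipogenesis, stood at 11.60, 11.98, 10.94 and 11.90 with vehicle and at 7.75, 11.55, 9.12 and 10.50 with TAK-875. Pair 1 dropped most and pair 2 least, and the response of -1.87 ± 0.65 (SE; limma adjusted p = 0.0426) was lost without pair 1, 3 or 4 (adjusted p = 0.414, 0.152 and 0.0639). Me1 stood at 9.31, 9.55, 8.45 and 9.76 against 7.38, 8.60, 7.92 and 8.03. Pklr went from 8.65, 8.25, 8.59 and 8.48 to 7.68, 7.21, 7.28 and 7.35, with no overlap and a response of -1.12 ± 0.27 (SE; limma adjusted p = 0.002), and was called without any 1 pair. The list mean differed by -1.21, -0.28, -0.11 and -0.60 in pairs 1 to 4 and was lower in 1 other line only. Thrsp, Me1 and Gpd2 (-0.68, lost without pair 1, 3 or 4) were also the 3 of 11 thyroid hormone targets that fell. Of 16 cholesterol synthesis genes 0 were called, with a list median of 0.02 beside 0.23 in the other lines.

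The respiratory chain list had 9 of 55 genes higher and 3 lower, beside 8.64% and 2.66% of all genes. Its median was 0.00, and its rises were small. Atp5g3, a subunit of ATP synthase, stood at 11.52, 12.18, 11.57 and 12.18 with vehicle and at 12.21, 12.13, 12.29 and 12.18 with TAK-875. Pairs 2 and 4 did not rise, and the response of 0.34 (limma adjusted p = 9.74e-05) was -0.02 without pairs 1 and 3 (adjusted p = 0.96). All 9 rises of this list were lost without pair 1, and none was called without pairs 1 and 3.

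Counts in the other lists were small, and the share over all genes was 8.64% higher and 2.66% lower. Unfolded protein response genes rose in 2 of 31, heat shock genes in 1 of 18 and acute phase genes in 3 of 30, while integrated stress response, interferon-stimulated, cell cycle, immediate early, circadian clock and periportal lists held 0. Sdf2l1, a protein of the endoplasmic reticulum, stood at 6.97, 6.51, 5.19 and 6.07 with vehicle and at 7.33, 6.94, 7.73 and 8.02 with TAK-875, a response of 1.32 ± 0.30 (SE; limma adjusted p = 0.00106) that was lost without pair 3 (0.91, adjusted p = 0.117). The heat shock list mean differed by 0.08, 0.32, 1.38 and -0.13, so that pair 3 stood apart, and Bag3, a co-chaperone, was the gene called (0.79, lost without pair 1 or 3). The acute phase list mean differed by 1.06 in pair 1 and by 0.12 to 0.17 in the others, and Stat3, which transmits the signal of interleukin 6, rose by 0.80 (adjusted p = 0.00793; lost without pair 1 or 3). Serpina6, which binds glucocorticoids in plasma, went from 10.13, 9.76, 10.18 and 10.05 to 6.75, 9.79, 7.76 and 8.88. Pair 2 did not fall, and the response of -1.74 ± 0.39 (SE; limma adjusted p = 0.00113) was lost without pair 1. Kupffer cell markers held 0 calls of 15, endothelial markers 1 rise of 15 (Fcgr2b, called on 1 of its 4 probe sets), and neutrophil markers 1 fall of 8 (Ltf). Hepatocyte markers had 3 rises of 9, among them Apoa2, with 1 after centring and 0 without pairs 1 and 3. Their list mean differed by 0.34, -0.03, 0.34 and -0.05 in pairs 1 to 4 and ranked 2nd of 44 lines, so that the rises lay in the pairs with low vehicle levels. Cholangiocyte markers had 1 rise of 4. Complement and coagulation genes had 3 rises and 2 falls of 33, glucose use 2 and 2 of 15, gluconeogenesis 0 and 1 of 15, glucocorticoid targets 1 and 1 of 17, p53 targets 1 and 0 of 16, pericentral genes 3 and 2 of 18, male-biased genes 1 and 1 of 17 and female-biased genes 2 and 2 of 19. Of the lists in this paragraph, 3 held calls without pairs 1 and 3, with 2 pericentral rises, 2 male-biased falls and 1 female-biased rise.

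Of 13 stellate cell and fibroblast genes, Colec10 and Bgn fell (-1.29, lost without pair 4, and -0.61, lost without pair 1), where 2.66% of all genes fell. The median was -0.41, and the list mean differed by -1.02, 0.03, -0.25 and -0.43 in pairs 1 to 4. Without pairs 1 and 3 neither was called. Cd79a, part of the B cell receptor, stood at 7.68, 5.58, 6.94 and 5.59 with vehicle and at 3.14, 4.83, 6.33 and 4.72 with TAK-875. The treated liver of pair 1 was the lowest, and the response of -1.69 ± 0.50 (SE; limma adjusted p = 0.0151) was -0.74 without pair 1 (adjusted p = 0.524). In whole liver RNA, fewer cells of a type and less RNA per cell cannot be told apart.

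To ask where this line departs from the others, its response was set against the mean of the other 43 line means in the same limma fit. The difference passed an adjusted p of 0.05 for 601 genes (6.61%), of which 475 (5.22%) were higher in CC052/GeniUnc and 126 (1.39%) lower. Higher genes were 79.0% of the calls as deposited, 54.1% of 333 after centring and 55.1% of 432 after quantile normalisation. The count was 96 without pair 1, 1005 without pair 2, 133 without pair 3, 610 without pair 4, 19 without pairs 1 and 3 and 141 when the line means were the unit of spread. A total of 29 genes, 19 higher and 10 lower, were called with all pairs and without any 1 of them. The largest positive differences were those of 2010003K11Rik (2.51 ± 0.48 SE; limma adjusted p = 0.00017), Acnat2 (2.30 ± 0.35 SE; adjusted p = 4e-06), Gpx2 (1.92) and Cyp2g1 (1.84 ± 0.39 SE; adjusted p = 0.00099). Cyp2g1, a cytochrome P450, stood at 8.49, 6.31, 5.93 and 3.34 with vehicle and at 6.58, 8.31, 8.73 and 7.77 with TAK-875. It fell in pair 1 and rose in the other 3 pairs, its response in the other lines averaged 0.00 ± 0.43 (SD), and its response of 1.83 was 0.97 without pair 4 (adjusted p = 0.132) and 3.22 without pairs 1 and 3 (adjusted p = 2.8e-06).

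Among the smaller positive differences, Slc25a37 (0.76, adjusted p = 4.8e-06), St3gal1 (1.296, adjusted p = 3.9e-06), Emb (0.85, adjusted p = 3.5e-05), Cd9 (1.07, adjusted p = 0.0003), Agt (0.81, adjusted p = 0.00017) and Pde7a (1.27, adjusted p = 0.00032) were limma calls without any 1 pair. The Slc25a37 value rests on the brightest of its 3 probe sets, of which only 1 was called for the response. Of the PPARA targets 3 of 39 responded more than in the other lines, Eci1 (0.63, adjusted p = 0.00036), Cpt2 (0.51, adjusted p = 0.032) and Acadvl (0.31, adjusted p = 0.0076), and 1 less. Eci1 lost this call without pair 1, Acadvl without pair 1 or 3 and Cpt2 without pair 1, 3 or 4. That gene was Cyp4a10 (-0.78, limma adjusted p = 0.0092), and its difference was 0.03 without pair 3 and 0.37 without pairs 1 and 3. For Acot3 and Acot1 the difference was 0.82 (adjusted p = 0.53) and 0.39 (adjusted p = 0.77), so that those rises were not shown to differ from the other lines. Respiratory chain genes had 10 of 55 higher and 0 lower. Over all genes 5.22% were higher and 1.39% lower in this comparison. Of the respiratory chain genes 0 were called after centring and 0 without pairs 1 and 3, where no PPARA target was called either.

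The largest negative difference was that of Inmt, a methyltransferase of small amines. It stood at 11.16, 8.90, 10.28 and 10.19 with vehicle and at 4.54, 9.11, 6.95 and 7.93 with TAK-875. Pair 2 rose slightly and the other 3 pairs fell, pair 1 most. The difference was -2.81 ± 0.53 (SE; limma adjusted p = 0.00017) on a response of -3.00, and the response was -1.80 without pair 1 (adjusted p = 0.0517) and -1.03 without pairs 1 and 3 (adjusted p = 0.68). Moxd1, a monooxygenase relative that is high in male liver, stood at 4.52, 8.73, 4.71 and 8.98 with vehicle and at 3.68, 4.01, 5.01 and 5.63 with TAK-875. The fall lay in pairs 2 and 4, and the difference of -2.10 ± 0.57 (SE; limma adjusted p = 0.013) rested on a response of -2.15 that was -1.30 without pair 2 (adjusted p = 0.165) and -4.04 without pairs 1 and 3 (adjusted p = 0.0016). Thumpd2 (-1.79, adjusted p = 7.5e-05) and Rab23 (-1.36, adjusted p = 0.00029) were limma calls without any 1 pair. Nr1d2, a clock repressor, differed by -1.90 (limma adjusted p = 0.018), with a response of -1.46 in this line (adjusted p = 0.058) and 0.44 in the others, and this call was lost without pair 1, 3 or 4. Trim16 (-2.68), Car3 (-1.73), Klf10 (-1.64), Cd79a (-1.61), Mecom (-1.59) and Aqp8 (-1.55) complete the 10 largest negative differences. Without pair 1 none of these 6 was called, and without pair 3 Car3 alone of them was.

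The last comparison asked how the vehicle livers of the line differ from those of the other lines, and it shares the 4 vehicle arrays with the responses above. With limma, 3243 genes (35.7%) differed from the mean of the other 43 line means, 660 (7.26%) higher and 2583 (28.4%) lower, and 310 by at least 2-fold. The other lines had 889 to 4218 such genes, and 2 had more than CC052/GeniUnc. The count was 1207 with a spread per line, 1088 without pairs 1 and 3, 1997 without pair 3 and 69 with the line means as the unit of spread. The median difference over all genes was -0.14 as deposited, 0.07 after centring and 0.02 after quantile normalisation, and the share of higher calls moved from 20.4% to 63.0% of 2749 and 49.6% of 2822. The direction of small differences therefore followed the scaling, and 1332 genes, 261 higher and 1071 lower, were called without any 1 pair on the deposited scale, 1094 of them under both other scalings too.

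Large differences did not turn with the scaling. Wfdc21, a small secreted inhibitor that rises in inflammation, stood at 5.58, 6.74, 5.84 and 5.65, where the other line means ran from 5.62 to 12.46 with a median of 11.15. The difference was -4.57 ± 0.28 (SE; limma adjusted p = 3.3e-30), 23.7-fold lower. Lcn2, lipocalin 2, stood at 5.68, 5.33, 5.55 and 4.94 against a median of 10.08 over the other line means, with a difference of -3.79 ± 0.80 (SE; limma adjusted p = 6.3e-05). Orm2 and Orm3, acute phase products like Lcn2, differed by -3.40 and -2.51. Some other lines were as low, since CC052/GeniUnc ranked 41st of 44 for Lcn2 and Orm3 and 43rd for Wfdc21 and Orm2. Isca1, an iron-sulfur cluster assembly factor, stood at 5.63, 5.14, 5.06 and 4.85 against a median of 9.21, 13.3-fold lower (-3.73 ± 0.09 SE; limma adjusted p = 2.4e-75). Sdf2l1 (-3.45), Cyp2c23 (-3.59), the organic anion carrier Slc22a30 (-3.32), Gm19696 (-3.17), Gm20319 (-3.03) and Pdxdc1 (-2.97) complete the 10 lowest. For Sdf2l1, Slc22a30, Gm19696, Gm20319 and Pdxdc1 no other line mean was lower. Whether the array probes match the sequence of this line was not tested for any of these genes, so the values are array signals.

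Slc22a26 was the gene most above the other lines. Its 4 vehicle levels, given above, lay between 6.13 and 9.30, where the other line means ran from 3.04 to 6.85, and the difference was 3.94 ± 0.31 (SE; limma adjusted p = 1.1e-21), 15.3-fold, with pairs 1 and 3 the higher. Slc22a27, whose probes also match unrelated genes, was higher by 2.43, again with pairs 1 and 3 above pairs 2 and 4, and without pairs 1 and 3 it was not called (limma adjusted p = 0.0627). Gstp3, a glutathione transferase, stood at 11.18, 11.62, 10.84 and 12.10 and was higher by 2.91 (limma adjusted p = 9.4e-18). Ugt3a2, a glycosyltransferase, was higher by 3.04, yet ranked 20th of 44, since the other line means spread from 3.64 to 11.64.

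**Figure D5:**
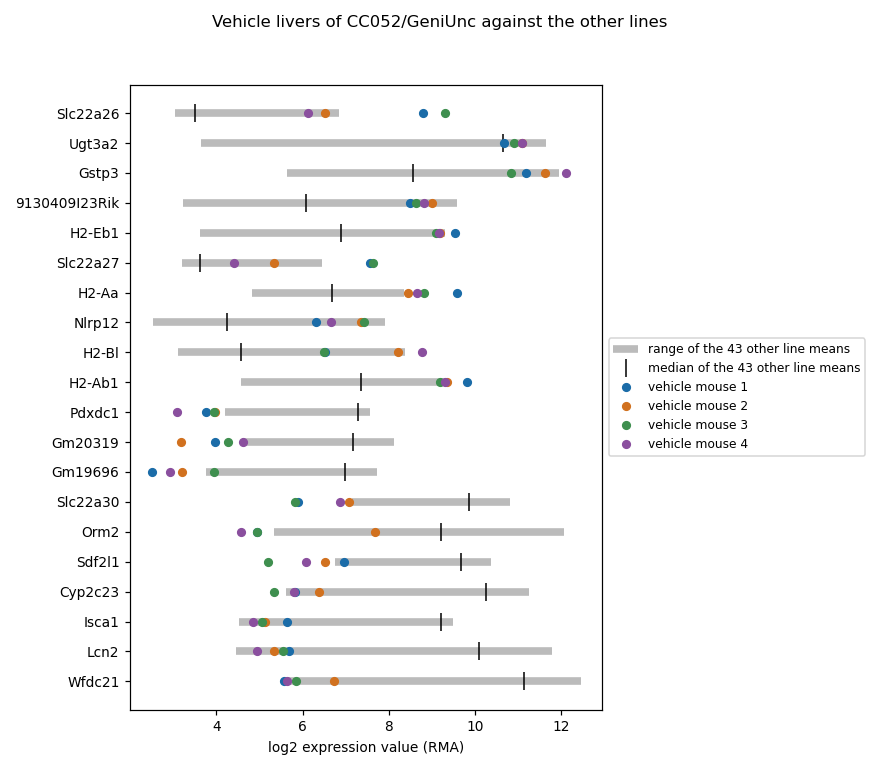
Log2 expression level (x axis) in the 4 vehicle livers of CC052/GeniUnc (points) for the 10 genes highest and 10 lowest against the other lines (y axis). Grey bars give the range and black ticks the median of the 43 other line means. For Slc22a26 and Slc22a27 the points of mice 1 and 3 lie right of the bar, and for Sdf2l1, Slc22a30, Gm19696, Gm20319 and Pdxdc1 most points lie left of it.

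Antigen presentation and resident immune cell genes were high in the vehicle livers. H2-Eb1, a chain of MHC class II, stood at 9.54, 9.19, 9.09 and 9.16, against 3.62 to 9.30 for the other line means with a median of 6.89, a difference of 2.75 ± 0.26 (SE; limma adjusted p = 1.4e-16). H2-Aa and H2-Ab1, on probe sets that can bind family members, were higher by 2.25 and 2.09, and no other line was higher. On the deposited scale 7.26% of all genes were higher and 28.4% lower. Of all 9093 genes, 1732 were higher and 1017 lower after centring, and 1401 and 1421 after quantile normalisation. Without pairs 1 and 3, 346 were higher and 742 lower. All 5 measured B cell markers, which include H2-Aa and H2-Ab1, were higher on the deposited scale and after both other scalings. Their mean per liver was 8.01, 7.28, 7.67 and 7.27, against 4.44 to 6.94 in the other lines, and 4 of 5 were called without pairs 1 and 3. Of 15 Kupffer cell and macrophage markers 8 were higher and 1, Mpeg1, lower (11 and 1 after centring, 10 and 1 after quantile normalisation). Folr2 (1.13), Clec4f (0.88), Vsig4 (0.88) and C1qa (0.82), which mark resident macrophages, were among those higher, while Mpeg1, the pore-forming perforin 2, differed by -0.95 (limma adjusted p = 0.0642 without pairs 1 and 3). Without those pairs 4 of the 15 were higher and 0 lower. Interferon-stimulated genes were higher in 0 and lower in 12 of 20, beside 7.26% and 28.4% of all genes. The counts were 1 and 6 after centring and 0 and 6 without pairs 1 and 3. Ifi27 (-1.36), Mx2 (-1.09) and Rtp4 (-0.94) were lower on all 3 scales.

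Hepatocytes next to the central vein make glutamine and many cytochromes P450, and those next to the portal tract make urea and glucose. Of 18 pericentral genes 1 was higher and 10 lower, where 7.26% and 28.4% of all genes were. The pericentral counts were 1 and 7 after centring, 1 and 9 after quantile normalisation, 0 and 6 with a spread per line and 1 and 6 without pairs 1 and 3. Over all 9093 genes, the background for every list of this paragraph, they were 1732 and 1017 after centring and 1401 and 1421 after quantile normalisation. With a spread per line they were 191 and 1016, and without pairs 1 and 3 346 and 742. The pericentral list mean stood at 8.57, 8.61, 8.73 and 8.80. On the deposited scale it was by a narrow margin the lowest of the 44 lines, the lowest other line mean being 8.68. Slc1a2, a glutamate carrier of pericentral cells, stood at 4.56, 4.38, 4.39 and 4.84 where the mean of the other lines was 7.04 ± 0.71 (SD), a difference of -2.50 ± 0.17 (SE; limma adjusted p = 8.6e-28). Oat, ornithine aminotransferase, differed by -1.22, Rhbg, an ammonia channel, by -1.29 and Lgr5, a Wnt co-receptor, by -0.68 (limma adjusted p = 0.0516 for Lgr5 without pairs 1 and 3). Of 15 periportal genes 5 were higher and 0 lower (10 and 0 after centring, 5 and 0 after quantile normalisation), but 1 was higher with a spread per line or without pairs 1 and 3. The differences were 0.49 for Ass1, of the urea cycle, and 0.30 for Hal, histidine ammonia lyase. Of 39 PPARA targets 1 was higher and 13 lower as deposited, a share near the 28.4% of all genes, with 4 and 6 after centring and 0 and 6 without pairs 1 and 3. Of 29 proteasome genes 0 were higher and 12 lower as deposited, 5 and 2 after centring and 1 and 2 without pairs 1 and 3. Respiratory chain genes turned with the scaling, with 3 of 55 higher and 26 lower as deposited, 13 higher and 4 lower after centring, and 1 higher and 3 lower without pairs 1 and 3. Alas2, the erythroid enzyme of haem synthesis, differed by -2.18 (limma adjusted p = 1.6e-15). Male-biased genes were higher in 2 and lower in 8 of 17, and 1 and 0 without pairs 1 and 3.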

How the data were processed

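Liver RNA was extracted with Trizol and hybridised to Affymetrix HT MG-430 PM arrays, 1 per mouse. The deposited values are log2 expression. The submitters' processing notes name RMA and Affymetrix Power Tools, with no version given in the sources used here. RMA equalises the arrays' distributions before probes are summarised, so a shift common to most genes is reduced before deposit. Of 16397 probe sets, 13083 name 1 gene, 261 several and 3053 none, by the platform annotation. The brightest probe set of each gene was kept, which gave 9093 genes, and 349 of these probe sets can bind transcripts of unrelated genes and 611 those of a family.

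The 171 study pairs, which the labels give and in which mice were treated together, were the unit. limma 3.58.1 (R 4.3.3) fitted 1 mean per line to the pair differences, or to the 171 vehicle arrays, with 127 residual degrees of freedom, an intensity trend and Benjamini-Hochberg adjustment over all genes at 0.05. The other lines entered as the mean of 43 line means, 39 of the 44 lines having 4 pairs and 5 having 3. The deviations of the mice of pairs 1 to 4 correlated at -0.08, 0.16, 0.15 and 0.27 within a pair, and at -0.04 on average between pairs. Scripts were tested on simulated data.

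Genes were named by rule. For the response these were up to 15 largest rises and 15 largest falls among called genes with 1 sign in 4 of 4 pairs. For the difference and for the vehicle level they were up to 10 in each direction, with up to 4 members of each of 29 gene lists and 12 marker lists and a panel of 38 genes, 37 of them measured. Members and lists were chosen with earlier results of these data known. Chosen after their values were seen were genes named for being called without any 1 pair, H2-Eb1, Trim16, Klra16, Eif2s3y and Kdm5d, members beyond 4 of a list, and 2 alternatives, a variance factor for each line and leaving out pairs 1 and 3. The other alternatives were centring, quantile normalisation, probe set choice, a filter on the dimmest 25% of genes, the eBayes settings, no replicate block, the line as the unit, the 4 pairs alone and leaving out each pair. A further line that the labels mention was not analysed here.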

Additional observations from a re-analysis of the deposited data

Results flagged for a closer look

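In 8 of 182 groups of 4 livers, over 91 named genes, 1 liver stood so far from the other 3 that Dixon's test at the 95% level marked it, and chance gives this in about 1 of 20 groups. With TAK-875, the liver of pair 3 was lowest for Cyp4a10 (9.19) and for Dio1, a deiodinase of thyroid hormone (8.29), and that of pair 2 was lowest for Nfil3, a circadian repressor (6.68), and highest for Pkhd1 (4.46). The TAK-875 liver of pair 1 was highest for Stxbp4 (3.60). With vehicle, pair 3 was highest for Lox (3.86), pair 2 highest for Orm2 (7.68) and pair 1 lowest for Slco1a1, an organic anion uptake carrier (7.29).

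The response differed from the mean of the other lines by limma for these genes. It was higher in CC052/GeniUnc for 2010003K11Rik (2.51), Acnat2 (2.30), Gpx2 (1.92), Cyp2g1 (1.84), Dnajc12 (1.70), Lox (1.70), Fbf1 (1.64), Ctif (1.44), Tfrc (1.41) and 1700031F05Rik (1.40). It was lower for Inmt (-2.81), Trim16 (-2.68), Moxd1 (-2.10), Nr1d2 (-1.90), Thumpd2 (-1.79), Car3 (-1.73), Klf10 (-1.64), Cd79a (-1.61), Mecom (-1.59) and Aqp8 (-1.55). Of these 20, the differences of 2010003K11Rik, Acnat2 and Thumpd2 were called without any 1 pair.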

How the results depend on the processing

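The response count of 1028 was 674 after centring, 253 with a variance factor per line, 33 without pairs 1 and 3, 1 with the 4 pairs alone, and 288 to 1384 with 1 pair left out. The difference count of 601 was 333 after centring, 141 with the line as the unit, 83 with a variance factor, 19 without pairs 1 and 3, and 96 to 1005 with 1 pair left out. The vehicle count of 3243 was 69 with the line as the unit, 1207 with a variance factor, 1088 without pairs 1 and 3, and 1997 to 3475 with 1 pair left out. Without the pair as a replicate block, 983 genes were called for the response and 585 for the difference, and 9 of 123 named calls were lost. Of 143 named calls, 24 were lost after centring, 19 after quantile normalisation, 67 with a variance factor and 108 without pairs 1 and 3, where a further 4 turned sign, namely the responses of Anxa4 (-0.0355), Apoh (-0.0538) and Slc22a27 (0.14) and the difference of Cyp4a10 (0.37). With 1 pair left out, the last ran from -1.23 to 0.0314, the latter without pair 3. The spread shared by all lines is narrower than that of this line, and with 4 pairs the number of arrays limits every value. The cause of these changes was not tested.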
